A study of Homo sapiens with 48 samples.

Results

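HRK and the BCL2 family genes that set the mitochondrial death threshold were followed in HEK293T cells, a human embryonic kidney line that carries adenoviral early genes and SV40 large T antigen. The members are the 10 genes HRK, BBC3, PMAIP1, BCL2L11, BID, BAX, BAK1, BCL2, BCL2L1 and MCL1, taken by gene symbol from 14685 genes in the count tables, and all 10 were present and tested. All cells were wild type and carried a transiently transfected plasmid for NCBP1 fused to Halo, so the controls overexpressed the cap-binding protein as well. In the T-REX arm ("reaction" in the labels), the Halo-bound photocaged precursor of HNE, Ht-PreHNE, was uncaged by light to modify NCBP1 with this lipid-derived electrophile. The 3 control arms were light alone ("UV"), probe alone ("Pre") and DMSO. The study's Methods give the probe for the light-alone arm too, so that arm is called here only by its name. RNA was taken at 3, 6 and 12 h from 4 repeats of each arm, which gave 48 libraries in 12 groups.

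Proteins of the BCL2 family decide whether the outer mitochondrial membrane is opened. BAX and BAK1 are the effectors that form the pores, and BCL2, BCL2L1 (BCL-XL) and MCL1 hold them in check. The BH3-only proteins HRK (Harakiri), BBC3 (PUMA), PMAIP1 (NOXA), BCL2L11 (BIM) and BID bind the guardians or the effectors, and many of their genes are known to be switched on by stress. HRK is best known from neurons deprived of growth factor and binds mainly BCL2 and BCL-XL.

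HRK, PMAIP1 and BCL2 are the members whose RNA rose with time in most arms, and their promoters are shown for that reason. Each is the RefSeq window from 250 bases before to 50 bases after the transcription start in GRCh38.p14, written 5′ to 3′ on the gene's strand. The window of HRK is chr12:116881392-116881691 (minus strand), that of PMAIP1 is chr18:59899746-59900045 (plus strand) and that of BCL2 is chr18:63319720-63320019 (minus strand). Capitals mark matches to 4 motifs that were picked after the sequences had been seen: ACGTCA (the core of a cAMP response element), TGANTCA (an AP-1 site), TGATGNAA (the core bound by ATF4 and CHOP) and CACGTG (an E-box).
HRK: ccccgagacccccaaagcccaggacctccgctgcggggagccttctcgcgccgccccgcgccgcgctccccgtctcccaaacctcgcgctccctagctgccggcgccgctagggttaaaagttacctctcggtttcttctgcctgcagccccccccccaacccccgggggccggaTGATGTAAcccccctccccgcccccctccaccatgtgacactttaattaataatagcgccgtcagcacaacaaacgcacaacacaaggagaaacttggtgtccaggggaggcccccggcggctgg
PMAIP1: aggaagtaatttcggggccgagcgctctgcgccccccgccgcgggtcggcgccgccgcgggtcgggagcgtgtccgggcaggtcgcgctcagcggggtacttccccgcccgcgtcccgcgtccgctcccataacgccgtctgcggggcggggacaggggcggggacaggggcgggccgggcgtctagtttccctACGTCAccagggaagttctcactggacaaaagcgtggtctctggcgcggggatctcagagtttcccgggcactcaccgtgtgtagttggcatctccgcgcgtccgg
BCL2: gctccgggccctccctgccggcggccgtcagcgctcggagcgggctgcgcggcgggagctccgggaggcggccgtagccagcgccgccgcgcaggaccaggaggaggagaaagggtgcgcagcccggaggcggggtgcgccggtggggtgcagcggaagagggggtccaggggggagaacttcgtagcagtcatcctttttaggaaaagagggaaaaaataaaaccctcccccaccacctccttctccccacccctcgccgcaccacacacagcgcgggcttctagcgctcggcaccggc
The HRK window held a single match, TGATGTAA, whose first base lay 75 bases before the start. PMAIP1 held ACGTCA from base -56, and BCL2 held none of the 4 motifs. Over 35116 RefSeq promoter windows of the same length, searched on both strands, TGATGNAA was present in 3.62%, ACGTCA in 7.98%, TGANTCA in 7.71% and CACGTG in 7.26%. Among the 9 members with a RefSeq window, TGATGNAA was found for HRK alone, beside 4.46% of 27305 genes. CACGTG was found for 3 of the 9, beside 8.77% of genes. BAX held 4 copies of CACGTG and BBC3 held 1 copy each of CACGTG and TGAGTCA. BID held CACGTG from base -106 in 1 window and from base -47 in another. These windows overlap, and both matches are the same genomic site. A match is a description of letters and was not tested as a binding site.

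Total counts per library ran from 23952455 to 37099535 (median 29405598.5), and replicate libraries differed by more than counting error. Levels are given as CPM, the counts scaled to library sizes that were adjusted by TMM over all 48 libraries. Of 6 genes fixed as typical of HEK293T, 5 were in the table, with IRS4 at 367 to 727 CPM, while 9 of 10 markers of leukocytes, hepatocytes, endothelium and fibroblasts were not listed and COL1A1 did not exceed 6.07 CPM. NCBP1, whose counts pool the plasmid and the endogenous gene, differed between arms. At 12 h it averaged 57501 ± 5339 CPM under T-REX (SD, n = 4), 59151 ± 10048 with probe alone, 40520 ± 6848 with light alone and 34642 ± 4554 with DMSO. In the same order, the means were 72832 ± 5963, 82943 ± 12035, 41696 ± 8909 and 53742 ± 5905 CPM at 6 h. At 3 h they were 75865 ± 15157, 64587 ± 4239, 61370 ± 6533 and 53847 ± 6155 CPM. Its part in the results below was not tested. In bulk RNA, a change in the share of cells that express a gene and a change per cell cannot be told apart. The series text calls the repeats independent, and which arms of a repeat shared a culture was not stated.

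The family differed widely in level. Per kilobase of merged exon (GENCODE 29), PMAIP1 was the highest, with group means between 33.2 and 55.9 CPM per kb, and MCL1 followed at 25.9 to 32.7. BAX lay between 9.75 and 14.2 CPM per kb, BCL2L11 between 10 and 11.7, BAK1 between 7 and 9.05 and BCL2L1 between 4.35 and 5.91. The lowest were BID at 2.63 to 3.44, HRK at 2.1 to 4.22, BBC3 at 1.6 to 3.06 and BCL2 at 1.58 to 2.19 CPM per kb. HRK is thus a low-level transcript of 356 to 1161 reads per library, but its highest group mean was 2.01 times its lowest, the widest range of the 10 members. BBC3 followed with 1.91 times and PMAIP1 with 1.68 times, and BCL2L11 had the narrowest range, 1.17 times.

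**Figure D1:**
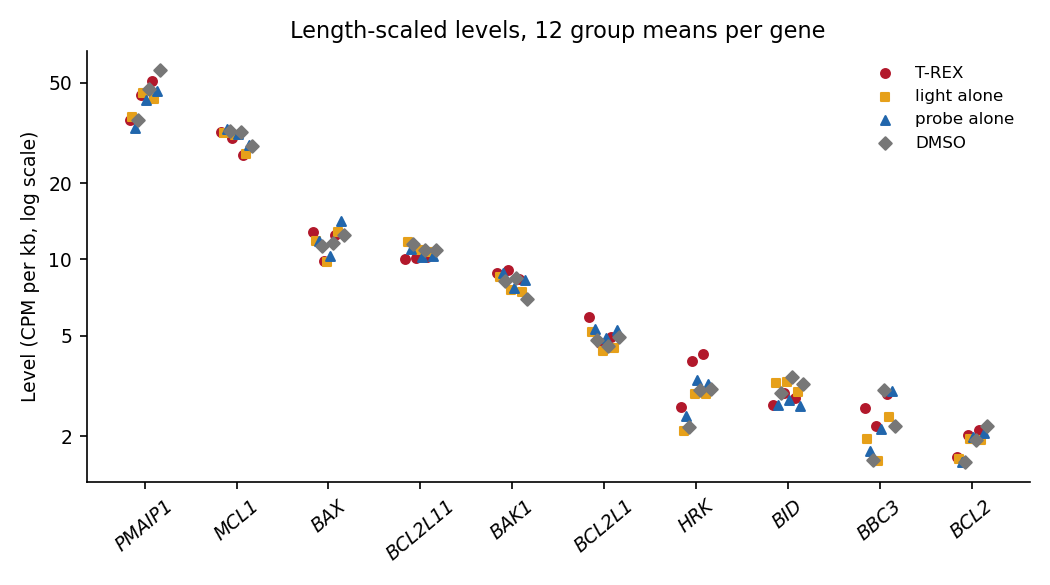
Mean level per kilobase of exon (CPM per kb, log axis) of each gene in 12 groups; for each gene the symbols run from 3 h on the left to 12 h on the right, and colour and shape give the arm. PMAIP1 and MCL1 lie above 25 CPM per kb in every group, while BCL2, BBC3, BID and HRK stay below 5.

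HRK was higher under T-REX than in the controls at 6 and 12 h. At 3 h the 4 T-REX libraries held 19.7, 17.7, 17.9 and 16.5 CPM (mean 18 ± 1.34 SD). Light alone held 15.3, 14.2, 14.8 and 13.3 CPM (14.4 ± 0.856), probe alone 16.4, 17.8, 15.1 and 16.6 CPM (16.5 ± 1.1), and DMSO 15.7, 14.6, 12.9 and 16.2 CPM (14.8 ± 1.44). The T-REX libraries overlapped those of probe alone but lay above all of light alone and DMSO. At 6 h the T-REX libraries stood close together at 26.6, 27.8, 27.4 and 27.3 CPM (27.3 ± 0.463). Light alone then held 19.7, 20.2, 18.2 and 22.1 CPM (20 ± 1.64), probe alone 24.1, 24.4, 21.9 and 20.8 CPM (22.8 ± 1.76), and DMSO 20.4, 20.9, 19.4 and 22.6 CPM (20.8 ± 1.32). Every T-REX library was above every control library at 6 h. At 12 h the T-REX libraries held 30.6, 29.9, 26.3 and 28.9 CPM (28.9 ± 1.9). Light alone held 20.8, 18.4, 19.5 and 22 CPM (20.2 ± 1.56), probe alone 23.4, 22.3, 23.5 and 19.3 CPM (22.1 ± 1.95), and DMSO 21.8, 24.5, 18.6 and 19.4 CPM (21.1 ± 2.66). The T-REX libraries again stayed above all control libraries, and the highest control, DMSO replicate 2, came within 2 CPM of the lowest T-REX library.

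**Figure D2:**
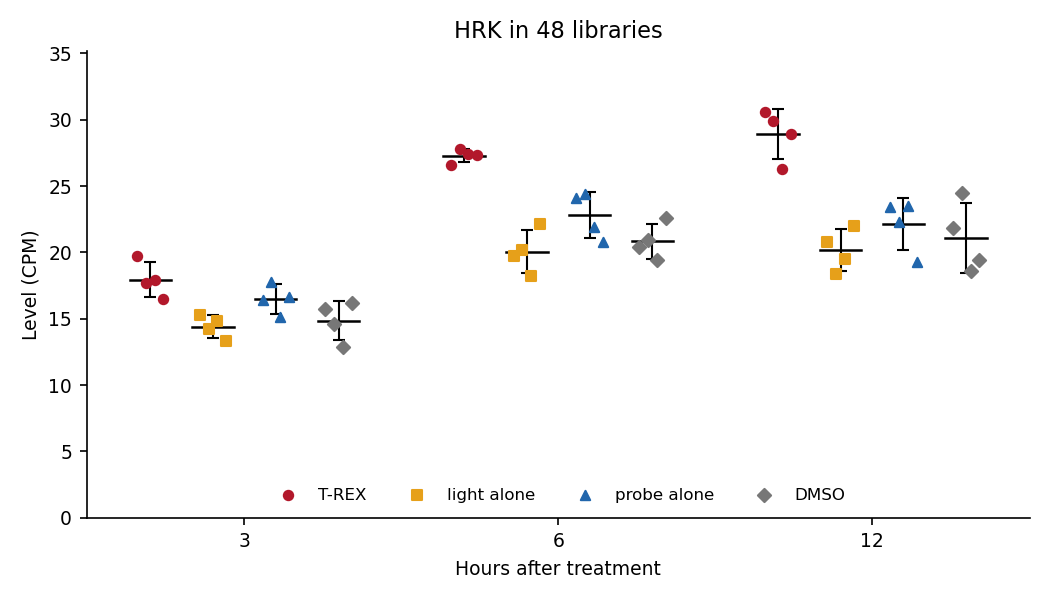
HRK level (CPM) in each of 48 libraries by arm and hours after treatment; horizontal lines and bars are the mean and SD of 4 libraries. The T-REX libraries at 6 h lie between 26.6 and 27.8 CPM and at 12 h between 26.3 and 30.6 CPM, above every control library, the highest of which is 24.5 CPM.

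The tests were edgeR quasi-likelihood fits of every gene in the table, with p adjusted by Benjamini-Hochberg. For HRK at 12 h, all 3 controls gave an adjusted p under 0.05. The log2 fold change was 0.52 against light alone (SE 0.0908, 1.44-fold, adjusted p = 0.00167), 0.38 against probe alone (SE 0.0905, 1.30-fold, adjusted p = 0.0411) and 0.46 against DMSO (SE 0.0908, 1.37-fold, adjusted p = 0.00236). At 6 h it was 0.44 against light alone (SE 0.0815, adjusted p = 0.0139) and 0.39 against DMSO (SE 0.0814, adjusted p = 0.0335), while 0.26 against probe alone did not pass (SE 0.0811, unadjusted p = 0.00393, adjusted p = 0.419). At 3 h none of the differences passed, with 0.32 against light alone (adjusted p = 0.11), 0.14 against probe alone (0.415) and 0.28 against DMSO (0.0656). DESeq2 called HRK at 3 h against light alone and DMSO. So did edgeR with the authors' 2 factors of unwanted variation per library as covariates. The 3 comparisons of a time point share the T-REX libraries. The authors named HRK among stress and cell death genes from these same libraries, so its direction here is not independent evidence.

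The calls against light alone and DMSO at 12 h held when any of the 16 libraries was left out, with adjusted p of at most 0.0146 and 0.0139. The call against probe alone at 12 h was lost in 11 of 16 such fits, the highest adjusted p being 0.18 without T-REX replicate 1, although the log2 fold change stayed between 0.32 and 0.42. It was also lost with the replicate number as a block (adjusted p = 0.0609). At 6 h the call against light alone was lost in 3 of 16 fits, without T-REX replicate 2 or 4 or light alone replicate 1 (adjusted p up to 0.0623), and in a fit of only the 2 arms (0.124). That against DMSO at 6 h was lost in 6 fits, without any 1 T-REX library or DMSO replicate 1 or 3 (up to 0.123).

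No difference among the controls was called for HRK. The log2 differences among light alone, probe alone and DMSO ran from -0.18 to 0.14 over 9 comparisons, with the lowest adjusted p at 0.375. Probe alone had the highest mean of the 3 controls at each time, 16.5, 22.8 and 22.1 CPM. At 3 and 6 h this mean lay above every library of light alone and DMSO, although single probe-alone libraries overlapped theirs. Ordered by mean, the 12 groups ran from light alone at 3 h (14.4 CPM) through the other groups to T-REX at 6 h (27.3) and 12 h (28.9). Each neighbouring pair in this order overlapped in its libraries, except that T-REX at 6 h lay apart from probe alone at 6 h, the group below it.

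Across the family, few differences between T-REX and the controls were past the threshold. Over 10 members and 9 comparisons, 6 of 90 tests were called, 5 for HRK and 1 for BCL2L11, and 8 members were never called. Of all genes, 0.197%, 1.05% and 5.99% were called at 3 h against light alone, probe alone and DMSO, where 0, 0 and 1 member were called. At 6 h the shares of all genes were 0.218%, 0.109% and 0.415%, and 1, 0 and 1 member were called. At 12 h they were 1.29%, 0.701% and 10.9%, with 1 member called against each control. The study's rule for a significantly changed gene asks that 2 or more of the 3 controls give a call of the same sign. By it, 0.947%, 0.136% and 1.4% of all genes passed at 3, 6 and 12 h. In edgeR, HRK was the member that passed, at 6 h and at 12 h. By DESeq2, HRK and BCL2L11 also passed at 3 h, against light alone and DMSO. The median log2 fold change of the 10 members ran from -0.079 (6 h against DMSO) to 0.134 (12 h against light alone), and that of all genes from -0.002 to 0.031.

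**Figure D3:**
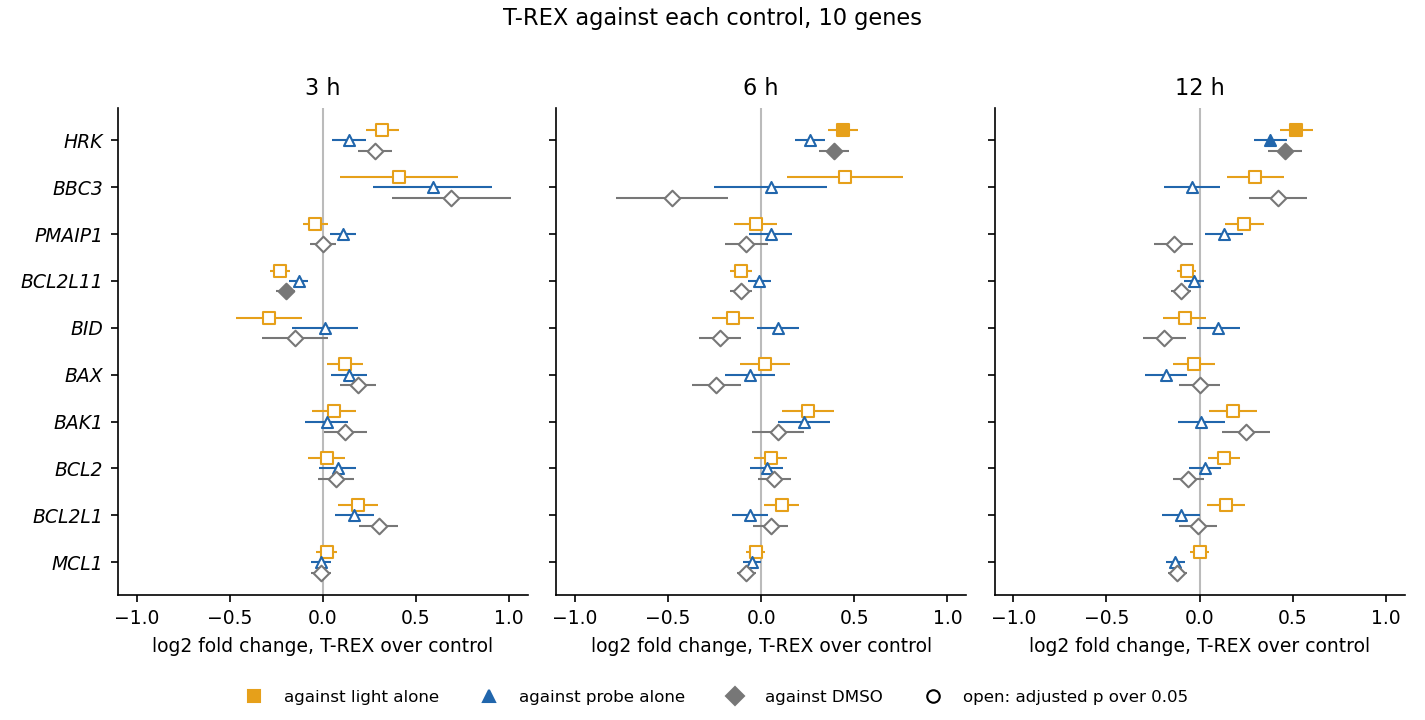
Log2 fold change of T-REX over each control (bars are 1 SE) for 10 genes at 3, 6 and 12 h; filled symbols have an adjusted p of at most 0.05 and open symbols do not. HRK lies between 0.14 and 0.52 in the 9 comparisons and BCL2L11 between -0.23 and -0.01, and the widest bars are those of BBC3.

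Differences among the control arms gave no call for any member in the edgeR fit of all 16 libraries without covariates. In that fit, 0 of 90 tests among the controls were called, against 14 before adjustment. Of 14685 genes, 751 to 3422 per comparison of controls passed before adjustment. With the authors' 2 factors of unwanted variation per library as covariates, edgeR called 11 of the 90. DESeq2 called 1 (BBC3, probe alone against DMSO at 12 h). Of all genes, the edgeR fit without covariates called 0.00681%, 0.00681% and 0.232% at 3 h (light alone against DMSO, probe alone against DMSO, light alone against probe alone). The shares were 0.00681%, 0.0272% and 0.0613% at 6 h, and 0.0136%, 5.11% and 0.415% at 12 h.

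BCL2L11, which encodes BIM, a BH3-only protein able to bind every guardian, was lower under T-REX at 3 h. The T-REX libraries held 67.6, 68.2, 62.8 and 67.8 CPM (66.6 ± 2.54 SD). DMSO held 76, 73.4, 77.9 and 80 CPM (76.8 ± 2.8), light alone 74.8, 79.2, 82.1 and 75.2 CPM (77.8 ± 3.49), and probe alone 74.4, 76.3, 72.6 and 70.3 CPM (73.4 ± 2.57). All 4 T-REX libraries lay below all control libraries. The log2 fold change was -0.20 against DMSO (SE 0.0522, adjusted p = 0.0258), -0.23 against light alone (0.0667) and -0.13 against probe alone (adjusted p = 0.206). The call against DMSO was lost without T-REX replicate 3, the lowest library (-0.18, adjusted p = 0.0526). It was also lost without DMSO replicate 1 (0.0654) or 4 (0.0761), and in a fit of only the 2 arms (0.0899). The difference from light alone was called by DESeq2 and with the authors' factors of unwanted variation as covariates. It also passed without light alone replicate 4 (adjusted p = 0.0497). At 6 and 12 h the means were 67.4 and 67.8 CPM under T-REX and 67.6 to 72.7 CPM in the controls, with overlapping libraries and no call. An exon of MIR4435-2HG overlaps BCL2L11 on the opposite strand over 727 bases, and it was not stated whether the counting used strand.

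The other BH3-only genes gave no call against a control. PMAIP1, which encodes the MCL1 partner NOXA, ran from -0.14 to 0.24 in log2 fold change over the 9 comparisons (SE up to 0.114). Its largest difference was against light alone at 12 h, where T-REX held 121, 109, 99.3 and 124 CPM and light alone 96.8, 96.1, 87.4 and 104 CPM (adjusted p = 0.32). These libraries overlapped. Without DMSO replicate 3 in the fit, this difference passed at an adjusted p of 0.0217. It also passed in a fit of only the 2 arms (0.0207). BID, which links the death receptors to mitochondria, ran from -0.29 to 0.10 (SE up to 0.178, lowest adjusted p 0.305). With the factors of unwanted variation as covariates, BID passed against light alone at 3 h (adjusted p = 0.0289). That setting also called BID between controls.

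BBC3, which encodes PUMA, a BH3-only protein that is a strong inducer of death, varied most between replicates. At 3 h the T-REX libraries held 4.98, 4.46, 14.7 and 8.85 CPM (8.25 ± 4.73 SD), and DMSO held 5.18, 4.33, 6.4 and 4.61 CPM (5.13 ± 0.916). T-REX replicate 3 thus held more than any control library at 3 h. Replicate 4 lay above them too, and replicates 1 and 2 lay inside their range. The log2 fold change against DMSO was 0.69 (SE 0.321, adjusted p = 0.227), and 0.25 without that library (adjusted p = 0.586). At 6 h the T-REX libraries held 6.17, 5.04, 7.47 and 9.21 CPM, light alone 4.73, 6.56, 2.16 and 6.92 CPM, probe alone 5.22, 5.73, 8.14 and 7.97 CPM, and DMSO 10.9, 7.34, 14 and 6.81 CPM. The arms overlapped, and the log2 fold change of T-REX was 0.45 against light alone and -0.48 against DMSO (adjusted p = 0.6 and 0.573). At 12 h it was 0.42 against DMSO (SE 0.155, adjusted p = 0.0826), which passed without DMSO replicate 1 (0.57, adjusted p = 0.0175). With the authors' 2 factors of unwanted variation per library (RUV) as covariates, 4 of the 9 BBC3 comparisons passed. They were at 3 h against probe alone (0.0109) and DMSO (0.00169), at 6 h against light alone (0.0244) and at 12 h against DMSO (0.0077). The same setting also called BBC3 between controls, for light alone against DMSO at 6 h (adjusted p = 6.58e-05) and for probe alone against DMSO at 12 h.

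Some libraries lay at the end of their arm for several members. T-REX replicate 3 at 3 h was the highest of its arm in BAX (39.8 against 27.2 to 33 CPM), in BAK1 (24.1 against 16 to 19.3), in BCL2L1 (24.5 against 17.3 to 18.8) and in MCL1 (155 against 125 to 141). Light alone replicate 3 at 6 h was the lowest of its arm in BBC3 (2.16 CPM), BAX (17.1 against 25.4 to 31.4), BAK1 (11.6 against 15.9 to 21) and BCL2L1 (13.1 against 14 to 16.5). DMSO replicate 3 at 12 h was the lowest in BAX (23.1 against 29.5 to 40.9) and BAK1 (10.2 against 16.4 to 18.9) and the highest in PMAIP1 (162 against 105 to 122). The first RUV factor of these libraries was -0.546, -0.664 and 0.788. At 6 and 12 h these were the values farthest from 0 among the 16 libraries, and at 3 h T-REX replicate 1 was slightly farther (0.561). The part of this spread in the results was not tested beyond the fits named here.

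**Figure D4:**
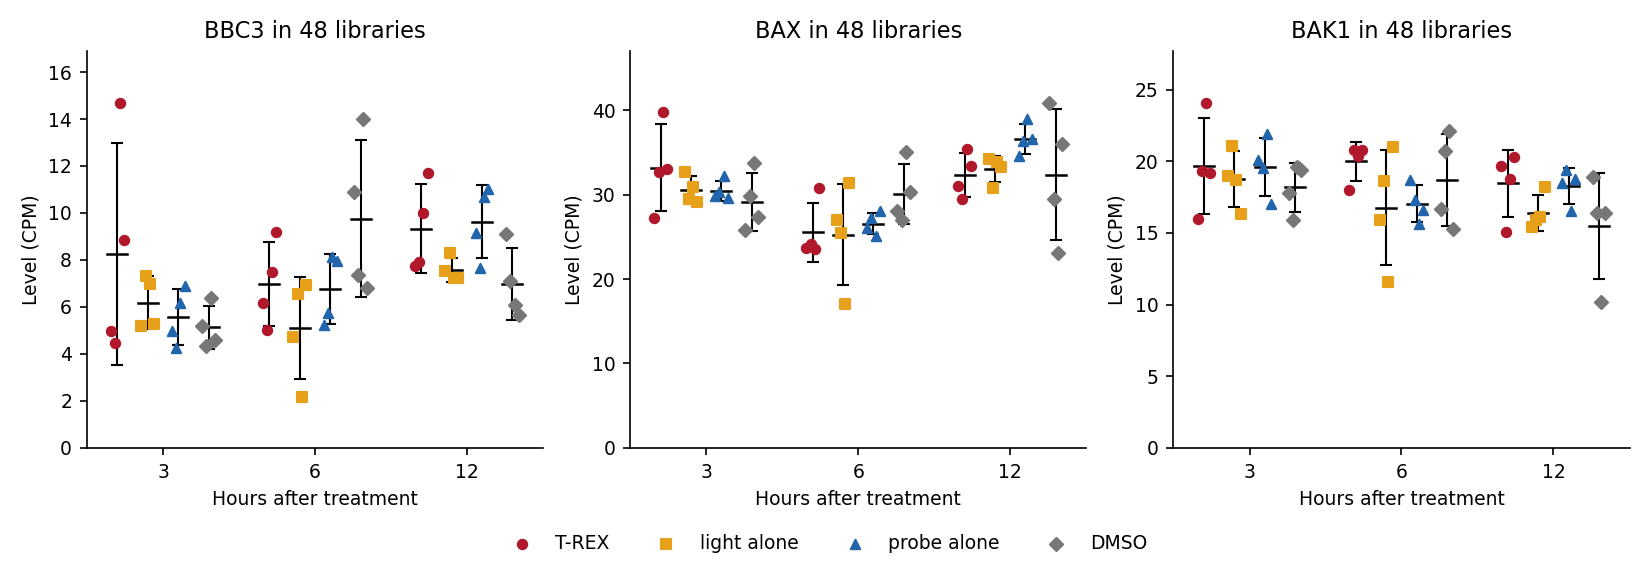
Level (CPM) of BBC3, BAX and BAK1 in each library by arm and hours after treatment, with the mean and SD of 4 libraries. BBC3 reaches 14.7 CPM in T-REX replicate 3 at 3 h, BAX is lowest in light alone replicate 3 at 6 h (17.1 CPM) and BAK1 in DMSO replicate 3 at 12 h (10.2 CPM).

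Neither effector was called against a control in the edgeR fit without covariates. The log2 fold change of T-REX ran from -0.24 to 0.19 for BAX (SE up to 0.133) and from 0.01 to 0.25 for BAK1 (SE up to 0.139). Of the guardians, BCL2 ran from -0.06 to 0.13 (SE up to 0.0981, lowest adjusted p 0.578) and MCL1 from -0.13 to 0.02 (SE up to 0.0548, lowest adjusted p 0.139). BCL2L1, the gene of BCL-XL, ran from -0.10 to 0.30, and its largest difference was against DMSO at 3 h, where T-REX held 18.8, 17.7, 24.5 and 17.3 CPM and DMSO 14.2, 16.6, 17.7 and 15.3 CPM (adjusted p = 0.096). These libraries overlapped in a narrow range. The log2 fold change of 0.30 became 0.17 without T-REX replicate 3 (adjusted p = 0.295), and it passed with the RUV factors as covariates (0.29, adjusted p = 0.00622). With these covariates BAX passed against DMSO at 3 h (adjusted p = 0.0391) and 6 h (0.0239). BAK1 passed against light alone at 6 h (0.048) and DMSO at 12 h (0.012). MCL1 passed at 12 h against probe alone (0.0349) and DMSO (0.0229). The same setting also called BAX, BAK1 and MCL1 between controls.

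Levels at 6 and 12 h were also compared with those at 3 h within each arm. In a fit of all 48 libraries, HRK rose from 3 h to 6 h by 0.60 on the log2 scale under T-REX (SE 0.0846, adjusted p = 4.7e-07), 0.48 in light-alone cells, 0.47 in probe-alone cells and 0.49 in DMSO cells (adjusted p at most 5.05e-05). From 3 h to 12 h the rise was 0.69 under T-REX (SE 0.0844, adjusted p = 4.77e-09), 0.49 in light-alone cells, 0.43 in probe-alone cells and 0.51 in DMSO cells (at most 5.61e-05). Each of these 8 calls remained without any 1 replicate number. HRK was thus higher at 6 and 12 h than at 3 h in cells that had not undergone T-REX as well.

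Of all genes, 23.3%, 25.3%, 21.5% and 16% changed from 3 h to 6 h in cells given T-REX, light, probe or DMSO, in that order, and 41.7%, 39.4%, 42.3% and 38.8% from 3 h to 12 h. Of the 10 members, 5, 3, 3 and 4 were called from 3 h to 6 h in these arms, and 5, 4, 5 and 4 from 3 h to 12 h. At 12 h the share of members called is near that of all genes, at 6 h it is higher, and with 10 genes neither is read as a result about the family. The times were deposited as separate tables, so time and any difference between their runs cannot be told apart.

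BCL2, the namesake guardian, rose in every arm at both later times. From 3 h to 12 h its mean went from 18.5 ± 0.746 to 25.8 ± 1.28 CPM with DMSO (log2 0.48, adjusted p = 2.25e-05), from 19.4 ± 2.09 to 24.8 ± 2.74 CPM under T-REX (0.36, adjusted p = 0.000919), from 18.6 ± 2.54 to 24.4 ± 1.55 CPM with probe alone (0.39, adjusted p = 0.000322) and from 19.1 ± 1.26 to 22.8 ± 1.79 CPM with light alone (0.25, adjusted p = 0.0195; SD, n = 4). The DMSO libraries went from 17.5, 19.3, 18.8 and 18.5 CPM to 24.5, 27.2, 26.6 and 25 CPM, without overlap. The rise with light alone at 12 h was lost without replicate 2 (adjusted p = 0.231) or 4 (0.0562), and each rise at 6 h was lost without some replicate, under T-REX without replicate 3 (0.19, adjusted p = 0.181).

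PMAIP1 rose in all arms at 6 h and in 3 arms at 12 h. With DMSO its libraries went from 80.5, 75.7, 82.9 and 79.1 CPM at 3 h to 122, 112, 162 and 105 CPM at 12 h (log2 0.65, SE 0.107, adjusted p = 4.59e-06), and these did not overlap. Under T-REX they went from 86.6, 82.7, 70.5 and 78.1 CPM to 121, 109, 99.3 and 124 CPM (0.51, adjusted p = 0.00015), again without overlap. The rise was 0.48 with probe alone (adjusted p = 0.000343), and light alone gave 0.24 (adjusted p = 0.0722), which passed without replicate 3 (0.30, adjusted p = 0.0139). At 6 h the 4 arms rose by 0.32 to 0.40, and each of these calls was lost without some replicate (adjusted p up to 0.204).

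MCL1, the guardian with a short-lived protein, fell from 3 h to 12 h in every arm. Under T-REX its libraries went from 140, 141, 155 and 125 CPM to 108, 123, 109 and 114 CPM (log2 -0.31, SE 0.0493, adjusted p = 1.82e-06). All 12 h libraries lay below all 3 h libraries. The change was -0.28 in light-alone cells, -0.21 in probe-alone cells and -0.20 in DMSO cells (adjusted p at most 0.000985), and all 4 calls remained without any 1 replicate number. At 6 h the values lay between -0.08 and -0.02 and none passed.

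BCL2L1 fell under T-REX by 0.33 at 6 h (adjusted p = 0.0107) and by 0.27 at 12 h (adjusted p = 0.026). Without replicate 3, whose 3 h library was the high one described above, the values were -0.20 (adjusted p = 0.178) and -0.15 (adjusted p = 0.255). BAX fell under T-REX at 6 h by 0.38 (adjusted p = 0.0285), and gave -0.24 without replicate 3 (adjusted p = 0.0948) and -0.36 without replicate 2 (0.167). BBC3 rose with DMSO at 6 h by 0.92 (SE 0.29, adjusted p = 0.0241) and with probe alone at 12 h by 0.79 (SE 0.287, adjusted p = 0.0244), and both calls were lost without replicate 1, 2 or 4. BCL2L11 fell with light alone at 12 h by 0.13 (adjusted p = 0.031), a call lost without any 1 replicate number. BID and BAK1 were called in no arm at either time.

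**Figure D5:**
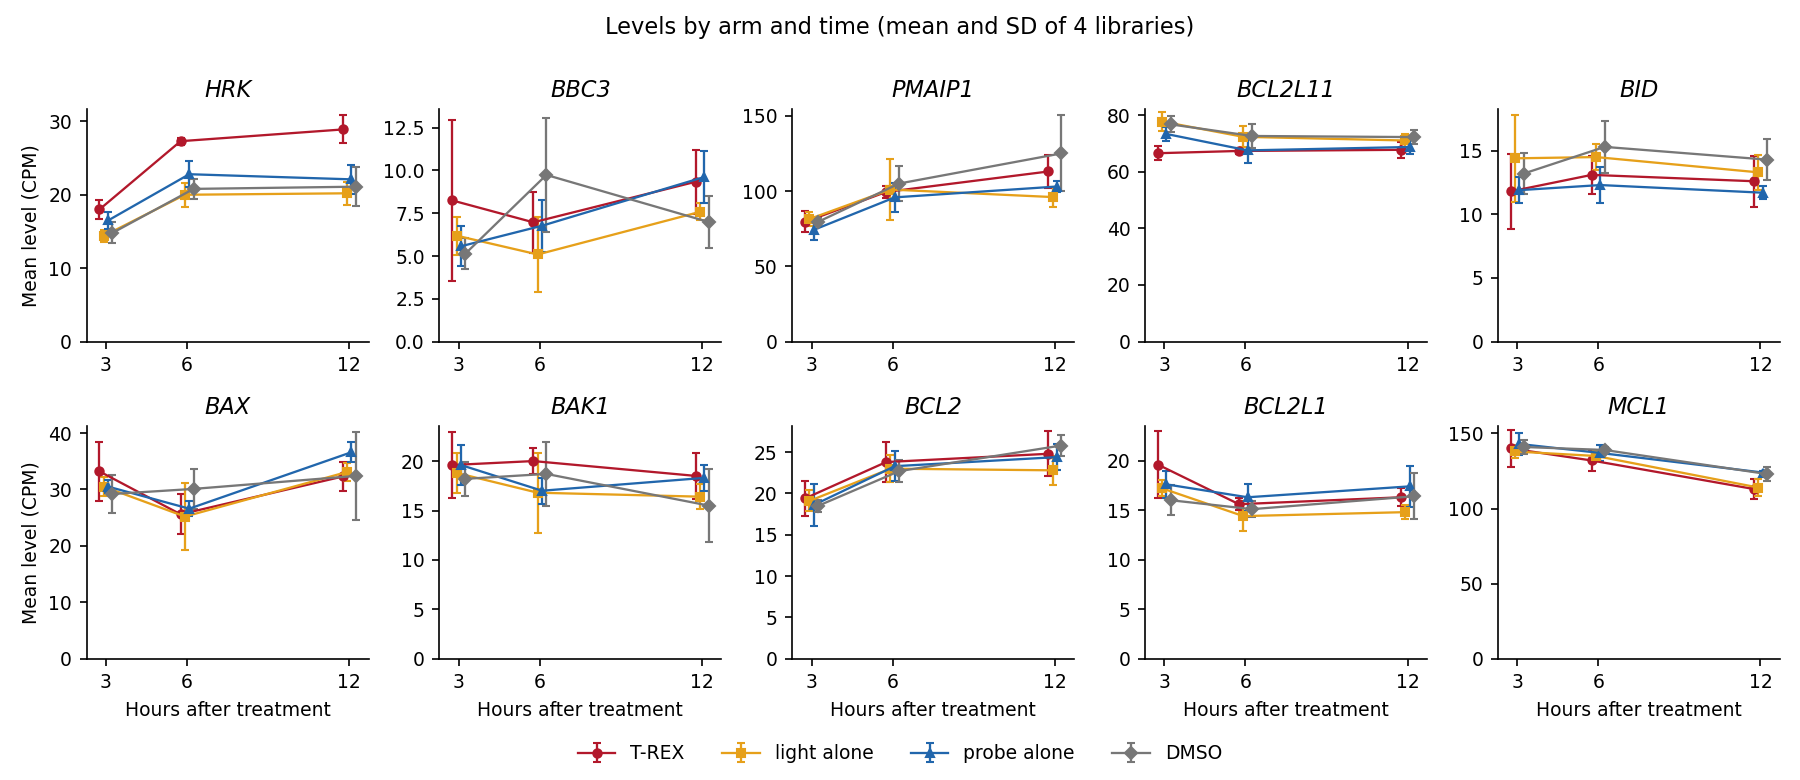
Mean level (CPM, bars are SD of 4 libraries) of each gene at 3, 6 and 12 h in 4 arms. HRK, PMAIP1 and BCL2 are higher at 12 h than at 3 h in each arm and MCL1 is lower, and HRK under T-REX, at 27.3 and 28.9 CPM, is above its controls at 6 and 12 h.

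Whether the effect of T-REX itself differed between times was tested with interaction terms. For HRK, the difference from each control grew from 3 h to 12 h by 0.20 (light alone, SE 0.12, adjusted p = 0.763), 0.26 (probe alone, SE 0.119, adjusted p = 0.328) and 0.18 (DMSO, SE 0.12, adjusted p = 0.669) on the log2 scale, and none of these passed. In edgeR and DESeq2, 0 of 60 member tests were called, with 5 at an unadjusted p under 0.05 in edgeR. Of 14685 genes, 671 to 2259 per interaction were past 0.05 before adjustment. Of all genes, 0%, 0% and 0.0136% were called for 6 h against light alone, probe alone and DMSO, and 0.0204%, 0.0681% and 0.00681% for 12 h. The call of HRK at 6 and 12 h and not at 3 h therefore does not show that its difference changed with time.

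The genes whose 12 group means followed HRK most closely were CREB5 (Pearson r = 0.953), a CRE-binding transcription factor, SCARB2 (0.941), a lysosomal membrane protein, ANKRD29 (0.940), CEP120 (0.935), a centriole protein, and MORC2 (0.934), a chromatin protein. These are correlations over 12 means of log2 CPM among 14683 genes, and the means share the time course and the scaling. By Spearman's rho, 2 of these 5 (SCARB2 and CEP120) were again in the leading 5. Of the family, BCL2 followed HRK most closely (r = 0.839, with 234 genes higher), then PMAIP1 (0.744) and BBC3 (0.558), while BCL2L11 (-0.772) and MCL1 (-0.595) ran the other way.

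Beyond the 10 members, 79 of 89 genes in 7 lists around the mitochondrial pathway were in the table. The genes of these lists that changed by the rule of at least 2 controls were BNIP3, BNIP3L, FBXW7 and ATF4, 1 of them at 3 h, 0 at 6 h and 4 at 12 h, beside 0.947%, 0.136% and 1.4% of all genes. At 3 h, 0, 0 and 1 gene of the 79 were called higher and 0, 1 and 4 lower against light alone, probe alone and DMSO. At 6 h, none were higher and 0, 1 and 0 lower, and at 12 h, 2, 0 and 3 were higher and 2, 2 and 8 lower. Of all genes, 5.99% and 10.9% were called against DMSO at 3 and 12 h, so the counts against DMSO are near the background. Against light alone and probe alone, the shares were 0.197% and 1.05% at 3 h and 0.218% and 0.109% at 6 h. At 12 h they were 1.29% and 0.701%. The share of the 79 genes was slightly larger at 3 h against probe alone. It was also larger at 6 h against probe alone and at 12 h against both. The lists were chosen with earlier results of these data known, so this is not read as a result about them.

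BNIP3, a mitochondrial BH3-like protein and mitophagy receptor, was the strongest of these. At 12 h it averaged 36 ± 5.26 CPM under T-REX, from 31.9 to 43.7 (SD, n = 4), while the controls averaged 63.1 ± 5.08 (light alone), 66.3 ± 8.14 (probe alone) and 61.9 ± 4.97 CPM (DMSO). The lowest control library held 54.3 CPM. In that order the log2 fold changes came to -0.81, -0.89 and -0.78, with adjusted p of 7.79e-05, 1.61e-05 and 3.41e-05. At 3 h BNIP3 averaged 34.1 CPM under T-REX and 34.4 to 39 CPM in the controls, so its mean under T-REX at 12 h was close to that at 3 h, and the control means were higher at 12 h. This change over time was not tested. Its relative BNIP3L averaged 121 ± 6.22 CPM under T-REX at 12 h and 167 to 177 CPM in the controls. Its log2 differences were -0.54 (light alone, adjusted p = 0.00118), -0.47 (probe alone, 0.0102) and -0.53 (DMSO, 0.000567). BNIP3L was also lower at 3 h against probe alone (-0.27, adjusted p = 0.0473) and DMSO (-0.32, adjusted p = 0.00674). The authors named both genes from these libraries, so their direction is not independent evidence.

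ATF4, the transcription factor of the integrated stress response, averaged 377 ± 16.1 CPM under T-REX at 12 h. The control means were 323 ± 10.1 (light alone), 324 ± 14.1 (probe alone) and 309 ± 26.2 CPM (DMSO). Every T-REX library (354 to 392) was above every control library (271 to 343). The log2 fold change was 0.23 against light alone (adjusted p = 0.0251), 0.22 against probe alone (0.0561) and 0.28 against DMSO (0.00129). FBXW7, the substrate arm of a ubiquitin ligase that acts on MCL1 protein, averaged 247 ± 17.9 CPM under T-REX at 12 h, with log2 fold changes of 0.32 against light alone (adjusted p = 0.0174), 0.17 against probe alone (0.36) and 0.37 against DMSO (0.00194). Its libraries under T-REX (229 to 268) overlapped those of probe alone, and lay above those of light alone (183 to 212) and DMSO (167 to 209).

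The other list genes gave calls against DMSO only, where 5.99% and 10.9% of all genes were called at 3 and 12 h. The counts per list are small and are not read as a result about the lists. Of 16 apoptosome, caspase and mitochondrial factor genes, CASP2 (-0.14) and CYCS (-0.26) were lower against DMSO at 12 h and no other comparison gave a call. Of 5 inhibitors of apoptosis, 0 of 45 tests were called by edgeR, with 6 past 0.05 before adjustment. Of 14685 genes, 964 to 3957 per comparison of T-REX with a control were past 0.05 before adjustment. Of 15 genes of JNK and AKT signalling to the family, YWHAZ was lower against DMSO at 3 h (-0.16) and 12 h (-0.24), and PIK3R1 (-0.23) and YWHAB (-0.14) at 12 h. Of 16 transcription regulators, calls against DMSO alone included E2F3 (-0.21 at 3 h and -0.30 at 12 h) and ATF2 (-0.20 at 3 h). Of 9 death receptor genes, CFLAR, a caspase-8 inhibitor, was higher against DMSO at 3 h (0.24, adjusted p = 0.0336). The medians of the 7 lists lay between -0.112 and 0.109 over the 9 comparisons, beside -0.002 to 0.031 for all genes. The single calls of this paragraph were not made against light alone or probe alone.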

How the data were processed

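The authors deposited, for each time point, whole-number counts per gene without normalization. These were tested. Deposited log2 CPM from the authors served an alternative fit, and the authors' 2 RUV factors, a score per library, served as covariates. The aligner, counter and genome build were not given in the sources used here beyond cutadapt, TopHat and Cufflinks in the Reporting Summary, and bcl2fastq in the submitters' processing notes. By the Methods, the libraries were stranded and paired-end. They were made with mRNA kit reagents, with ribosomal RNA depletion in place of poly(A) selection, and the labels name the mRNA kit.

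Each time point (16 libraries) was fitted as a whole in edgeR 4.0.16 (R 4.3.3, TMM, filterByExpr, robust glmQLFit), and the 48 libraries together for time and interactions. filterByExpr removed 0 genes. p-values were adjusted within each comparison by Benjamini-Hochberg, and genes at or under 0.05 were called. limma 3.58.1 and DESeq2 1.42.0 gave alternatives. Levels use TMM factors over 48 libraries. The test was checked on simulated counts. Library depth was 23952455 to 37099535 counts. Chi-square values per degree of freedom between replicates ran from 3.15 to 46.5, so no libraries were counted as 1.

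Named genes are the 10 members, the list genes with calls of the same sign for 2 or more of the 3 controls (other list genes called once are named after their values were seen), and the 5 genes most correlated with HRK (mean of at least 1 CPM). The members and lists were chosen with earlier results of these data known. Symbols came from a gene name table (14648 of 14685 identifiers), lengths from GENCODE 29 and promoters from RefSeq. Alternatives were RLE factors, no filter, a mean of at least 100 counts, a replicate block, RUV covariates, fits of 2 arms, and leaving out libraries. The deposited RUV-transformed log2 values, splicing and reads were not used here. The result of 1 list gene is not reported here.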

Additional observations from a re-analysis of the deposited data

Results flagged for a closer look

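In 7 of 120 groups of 4 libraries (10 genes in 12 groups), 1 library lay farther from the others than Dixon's 95% critical value for 4 samples, and chance flags about 1 in 20 groups. Under T-REX these were BCL2L11 at 3 h, with 62.8 CPM in replicate 3 against 67.6 to 68.2 in the others, BID at 6 h, with 15.4 in replicate 3 against 12.1 to 12.6, BAX at 6 h, with 30.8 in replicate 4 against 23.5 to 24.2, and BAK1 at 6 h, with 18 in replicate 1 against 20.4 to 20.8. In the controls they were PMAIP1 with light alone at 3 h, with 74.7 in replicate 4 against 82.7 to 84.1, BCL2 with light alone at 6 h, with 25.4 in replicate 3 against 22 to 22.4, and BCL2L1 with probe alone at 6 h, with 14.2 in replicate 3 against 16.8 to 17.1. HRK, BBC3 and MCL1 had no such library. The high BBC3 library under T-REX at 3 h (14.7 CPM) was not flagged, because the others of its group were spread as well.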

How the results depend on the processing

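Of 90 member tests of T-REX against controls, 6 were called, and 6 with RLE factors, no filter, a mean of at least 100 counts or limma-trend, 9 with DESeq2, 5 in fits of 2 arms, 5 with a replicate block and 21 with the RUV factors as covariates. With these factors the members called were 3, 1 and 5 at 3 h against light alone, probe alone and DMSO, 3 and 2 at 6 h against light alone and DMSO, and 2 and 4 at 12 h against probe alone and DMSO. Among controls they were 2 (light alone against probe alone, 3 h), 2 (light alone against DMSO, 6 h), and at 12 h 1, 5 and 1 (light alone against DMSO, probe alone against DMSO, light alone against probe alone), where 0 were called without the factors. With these factors, 2176 of all 14685 genes were called at 3 h for light alone against probe alone, in place of 34. For light alone against DMSO at 3 h the count was 858 in place of 1, so calls rose over all genes as well. The highest T-REX counts over all genes at 3 h, given below, also came from this setting. The cause was not tested. DESeq2 called 2 and 2 at 3 h against light alone and DMSO, and 1 for probe alone against DMSO at 12 h. Over all genes at 3 h it called 260 of 14682 against light alone and 1200 against DMSO, in place of 29 and 880. Fits of 2 arms called 0 against DMSO at 3 h, 0 against light alone at 6 h and 2 against light alone at 12 h. The replicate block gave 0 members against probe alone at 12 h in place of 1 and changed no other count. Same-numbered libraries correlated in their deviations from -0.65 to 0.58 over 24 pairs at 3 h, -0.53 to 0.48 at 6 h and -0.35 to 0.24 at 12 h, and 3, 9 and 2 of 16 libraries correlated best with their own number, so the numbers were not taken as pairs. With 1 library left out, the members called ran from 0 to 1 at 3 h against light alone and DMSO, at 6 h against light alone and DMSO and at 12 h against probe alone, from 1 to 2 at 12 h against light alone and DMSO, from 0 to 1 for light alone against DMSO and from 0 to 2 for probe alone against DMSO at 12 h. Without 1 replicate number, the counts from 3 h to 6 h ran from 1 to 4 in each arm, and from 3 h to 12 h from 2 to 4 with light alone. The 33 calls over time were 33 under each other setting, no member test reversed, and leaving out libraries kept the call or its absence in 3370 cases, with 57 calls lost and 13 gained. Counts over all genes also moved. Against light alone, probe alone and DMSO they ran from 3 to 1733, 3 to 2551 and 187 to 3061 at 3 h (29, 154 and 880 as reported), from 9 to 1202, 13 to 257 and 49 to 1048 at 6 h (32, 16 and 61), and from 185 to 1266, 90 to 901 and 366 to 3925 at 12 h (189, 103 and 1598). BBC3 had the fewest reads, 62 to 430 per library, and a median coefficient of variation between replicates of 21.6%.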
